A study of Zea mays with 12 samples.

Results

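Aleurone and starchy endosperm cells of naked endosperm (nkd) maize kernels were compared, to ask which genes of cell identity differ between the tissues in the mutant. The comparison rests on 6 of the 12 libraries in the study, 3 of nkd aleurone and 3 of nkd starchy endosperm, chosen by their labels. The other 6 libraries, 3 of B73 aleurone and 3 of B73 starchy endosperm, gave the same comparison in the wild type. B73 is the inbred reference line, and the nkd stock carried mutant alleles of the duplicate genes Nkd1 and Nkd2 after 4 generations of backcrossing to B73, so some donor segments may remain beside the mutations. Kernels of both genotypes were 15 days past pollination when taken. Cells were cut by laser from paraffin sections of the fixed kernels, and their polyadenylated RNA went through linear T7 amplification ahead of sequencing. The sources used here do not say how many kernels or ears a library pools, so each p-value reflects variation among these libraries, which may be partly technical.

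The endosperm of a cereal grain has a surface layer, the aleurone, and an inner storage tissue, the starchy endosperm. Aleurone cells keep a living cytoplasm at maturity, with oil bodies, protein storage vacuoles rich in phytate and, in coloured maize, anthocyanin, and they share regulators with the plant epidermis. Starchy endosperm cells fill with starch and with zeins, the prolamin storage proteins, under transcription factors such as Opaque2 and the prolamin-box binding factor. Nkd1 and Nkd2 encode INDETERMINATE-domain zinc finger factors that act in aleurone differentiation, and the mutant is known for an irregular, poorly differentiated outer layer.

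Levels are given as CPM, gene reads scaled to a common library size with TMM factors, for replicates 1, 2 and 3 in that order, and a difference is the log2 of nkd aleurone over nkd starchy endosperm with its standard error (SE), n = 3 libraries each. CPM is not divided by transcript length, so levels are compared between tissues and not between genes. A gene was called where its adjusted p from edgeR's quasi-likelihood test was under 0.05. That test took its spread from all 12 libraries, so the nkd calls also depend on the B73 libraries unless a fit of nkd libraries alone is named. The nkd aleurone libraries held 27012516, 46118011 and 44232299 gene reads, and the nkd starchy endosperm libraries 25767015, 35474306 and 30553966; the B73 libraries ranged between 9570991 and 64000867. Across genes, log2 levels correlated at 0.934 to 0.954 among the nkd aleurone libraries and at 0.898 to 0.931 among the nkd starchy endosperm libraries. Between the tissues the correlation was 0.834 to 0.902. Its upper end came from nkd starchy endosperm replicate 3, at 0.871 to 0.902 with nkd aleurone and 0.898 to 0.926 with its own group, so results that turn on that library are also given without it. That library was singled out from these same data, and leaving it out can widen the nkd difference by itself. Without it 2501 of 26478 tested genes were called, against 1736 of 26674 with it. List counts and medians from that fit are therefore a description only. B73 starchy endosperm replicate 2 lay near B73 aleurone, at 0.933 to 0.959, close to the correlations among B73 aleurone libraries (0.960 to 0.962). The library furthest from its own group was B73 starchy endosperm replicate 3, at 0.866 and 0.87. It also had the fewest gene reads (9570991).

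Marker genes separated the nkd tissues as labelled. The summed level of 9 aleurone markers was 7865, 11059 and 2853 CPM in nkd aleurone, against 223, 311 and 674 CPM in nkd starchy endosperm. The groups did not overlap, and replicate 3 lay closest to the other tissue in both. Most of each sum was a single gene, vpp1, at 6920, 10520 and 2418 CPM in nkd aleurone and 165, 228 and 561 CPM in nkd starchy endosperm. Taken singly, 8 of the 9 markers had all nkd aleurone libraries above all nkd starchy endosperm libraries, against 15.9% of all tested genes. Sal1 overlapped. Of those 8, TIP3-2 rested on 16 reads in nkd aleurone and 1 in nkd starchy endosperm. The 26 zeins, markers of starchy endosperm, took 0.903%, 0.281% and 0.178% in nkd aleurone, against 10.7%, 4.18% and 4.98% in nkd starchy endosperm of gene reads. Zeins were thus present in every aleurone library, at a share below that of each starchy endosperm library. Genes of the basal transfer layer, the sugar-importing cells at the base of the endosperm, summed to 19.7, 29.04 and 278 CPM in nkd aleurone, against 28.5, 55.9 and 528 CPM in nkd starchy endosperm. Replicate 3 of both tissues was high in these genes, and none of the 15 tested passed. Markers of the embryo surrounding region summed to 1.18, 1.52 and 17.6 CPM in nkd aleurone, against 0, 1.19 and 6.399 CPM in nkd starchy endosperm, again highest in replicate 3 of each tissue. Markers of the ovule and pericarp summed to 27.02, 22.6 and 35.1 CPM in nkd aleurone, against 18.6, 13.7 and 54.96 CPM in nkd starchy endosperm, with overlapping groups. The part of these other cell types in the results below was not tested, and a smaller share of a cell type cannot be told apart here from less RNA of a gene per cell.

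Of the mutated pair, Nkd2 was lower in nkd aleurone and Nkd1 was not called. Nkd1 stood at 108, 95.99 and 86.3 CPM in nkd aleurone, against 129.8, 111 and 115 CPM in nkd starchy endosperm. All 3 aleurone libraries lay below all 3 starchy endosperm libraries by a small margin, and the difference of -0.29 ± 0.41 did not pass (edgeR adjusted p = 0.738). Nkd2 stood at 17.6, 13.2 and 11.2 CPM in nkd aleurone, against 43.3, 51.4 and 46.7 CPM in nkd starchy endosperm. Its difference was -1.75 ± 0.30 (edgeR adjusted p = 0.00665), with no overlap. The adjusted p was 0.0665 in an edgeR fit of the nkd libraries alone with the flow cell as a block. Transcripts of both loci were thus read in every nkd library, and the counts do not show whether they encode a working protein. In B73, Nkd1 stood at 145, 123 and 171 CPM in B73 aleurone, against 330.4, 142 and 573 CPM in B73 starchy endosperm, and Nkd2 at 66.1, 62.5 and 51.8 CPM in B73 aleurone, against 108, 75.8 and 79.6 CPM in B73 starchy endosperm.

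Over all genes, nkd aleurone and nkd starchy endosperm differed in both directions about equally. Of 26674 tested genes, 864 were higher in nkd aleurone (3.24%) and 872 were lower (3.27%), 6.51% in all; in 15.9% of tested genes the 3 aleurone libraries all lay above the 3 starchy endosperm libraries, and in 12.5% all lay below. The count depended on single libraries, since without 1 nkd library it ranged from 632 without nkd starchy endosperm replicate 1 to 2501 without nkd starchy endosperm replicate 3. It was 692 without nkd aleurone replicate 2, 923 without nkd starchy endosperm replicate 2, 976 without nkd aleurone replicate 3 and 1036 without nkd aleurone replicate 1, and 463 of the 1736 genes (26.7%) were called in each of these 6 fits. With the spread taken from the nkd libraries alone, 963 were called. Of 321 tested members of the 31 gene lists below, each counted once, 25 were called higher and 52 lower.

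**Figure D1:**
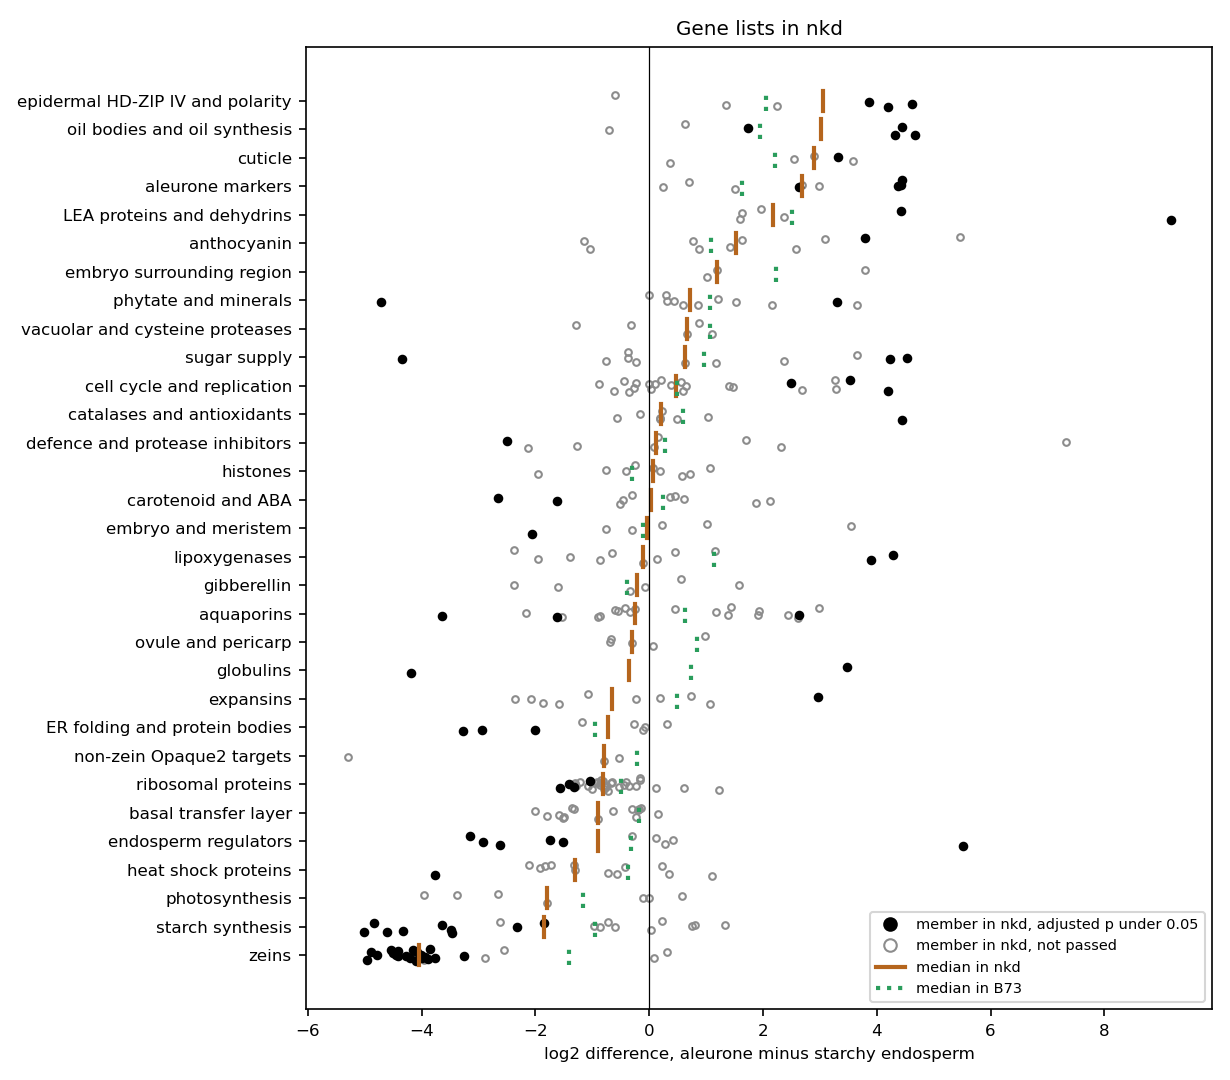
Each point is a member of a gene list, placed by its log2 difference between nkd aleurone and nkd starchy endosperm (horizontal axis); filled points had an edgeR adjusted p under 0.05 and bars mark the list's median in nkd and in B73. Zeins and starch synthesis genes lie furthest left, with medians of -4.05 and -1.85 in nkd, and the epidermal HD-ZIP IV and oil body lists furthest right, with medians of 3.06 and 3.03.

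Of 9 tested aleurone markers 4 were called higher in nkd aleurone and 0 lower. All 9 had a difference above 0 (median 2.69; 0 over all tested genes). The gene vpp1, for a vacuolar proton-pumping pyrophosphatase, stood at 6920.0, 10520.0 and 2418 CPM in nkd aleurone, against 165, 228 and 561 CPM in nkd starchy endosperm. The tissues did not overlap, and its difference was 4.38 ± 0.83 (edgeR adjusted p = 0.00988). The peroxiredoxin gene per-1, of an antioxidant enzyme of aleurone and embryo, stood at 628, 282 and 236 CPM in nkd aleurone, against 2.53, 11 and 39.1 CPM in nkd starchy endosperm, a difference of 4.44 ± 0.87 (edgeR adjusted p = 0.01104). Its starchy endosperm level was highest in replicate 3. The tonoplast aquaporin gene TIP3-1, of seed storage vacuoles, stood at 11.9, 4.81 and 8.05 CPM in nkd aleurone, against 1.11, 1.53 and 1.33 CPM in nkd starchy endosperm, with no overlap and a difference of 2.64 ± 0.54 (edgeR adjusted p = 0.0137). Its call was lost without nkd starchy endosperm replicate 1 (edgeR adjusted p = 0.0621) or nkd aleurone replicate 1 (0.0519). The lipid transfer protein gene LTP3 stood at 140.0, 114 and 59.3 CPM in nkd aleurone, against 4.95, 24.2 and 19.2 CPM in nkd starchy endosperm, without overlap, but its difference of 2.69 ± 0.90 did not pass (edgeR adjusted p = 0.0917, but 0.0193 by DESeq2 and 0.02805 by edgeR without B73 starchy endosperm replicate 1).

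Of the genes by which the aleurone fate is set, edgeR called none of the 3 below. The receptor kinase gene cr4 stood at 28.2, 40.03 and 27.8 CPM in nkd aleurone, against 14.2, 5.26 and 14.1 CPM in nkd starchy endosperm, a difference of 1.51 ± 0.48 (edgeR adjusted p = 0.0778, and 0.0277 by DESeq2). The calpain gene dek1 stood at 12.8, 18.5 and 12.9 CPM in nkd aleurone, against 8.47, 10.03 and 8.61 CPM in nkd starchy endosperm, a difference of 0.71 ± 0.34 (edgeR adjusted p = 0.2401). The endosomal sorting gene Sal1, which restricts aleurone to a single layer, stood at 37.6, 23.5 and 32.9 CPM in nkd aleurone, against 26.7, 24.3 and 28.4 CPM in nkd starchy endosperm, a difference of 0.24 ± 0.36 (edgeR adjusted p = 0.757). For cr4 and dek1 the aleurone libraries all lay above the starchy endosperm libraries, and for Sal1 they overlapped.

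Of 6 epidermal homeodomain (HD-ZIP IV) and cell polarity genes 3 were called higher in nkd aleurone and 0 lower, with a list median of 3.06. The 3 called genes are all of the outer cell layer (OCL) family. The gene ocl1 stood at 88.98, 79.8 and 109.7 CPM in nkd aleurone, against 0.673, 3.09 and 7.47 CPM in nkd starchy endosperm. Even the highest starchy endosperm library, replicate 3, lay far below the lowest aleurone library, and the difference was 4.62 ± 0.83 (edgeR adjusted p = 0.00774). The gene ocl4 stood at 89.8, 82.5 and 49.8 CPM in nkd aleurone, against 2.49, 3.36 and 6.17 CPM in nkd starchy endosperm, a difference of 4.20 ± 0.79 (edgeR adjusted p = 0.00928, and 0.05297 by limma). The gene ocl5 stood at 64.4, 97.5 and 99.2 CPM in nkd aleurone, against 0.831, 7.29 and 9.68 CPM in nkd starchy endosperm, a difference of 3.87 ± 0.96 (edgeR adjusted p = 0.0303). The call of ocl5 was lost without any 1 nkd library other than nkd starchy endosperm replicate 3 (highest edgeR adjusted p = 0.0849). Another member of the family, ocl3, did not share the pattern, at 6.28, 4.63 and 5.801 CPM in nkd aleurone, against 1.74, 5.98 and 17.7 CPM in nkd starchy endosperm. The polarity receptor gene pan1 stood at 97.3, 72.2 and 14.9 CPM in nkd aleurone, against 9.19, 3.14 and 26.5 CPM in nkd starchy endosperm, with nkd aleurone replicate 3 inside the starchy endosperm range (edgeR adjusted p = 0.203).

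Of 5 tested genes of the cuticle, the wax layer of surface cells, all had a difference above 0 (median 2.89) and 1 was called. That gene was gl8b, a reductase of fatty acid elongation, at 5.66, 4.52 and 7.58 CPM in nkd aleurone, against 0.119, 0.297 and 1.33 CPM in nkd starchy endosperm, a difference of 3.32 ± 0.90 (edgeR adjusted p = 0.0427). Its call was lost without any 1 nkd library other than nkd starchy endosperm replicate 3 (highest edgeR adjusted p = 0.129) and with the spread taken from nkd libraries alone (0.0714), and also without any 1 B73 aleurone library (highest 0.0664). The wax gene gl1 stood at 90.6, 12.4 and 35.7 CPM in nkd aleurone, against 0.0396, 1.53 and 9.94 CPM in nkd starchy endosperm, without overlap but with a wide spread in both tissues, and did not pass (edgeR adjusted p = 0.164).

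Of 6 oil body and oil synthesis genes 4 were called higher in nkd aleurone and 0 lower (median 3.03), and the list took 0.522%, 0.3102% and 0.488% in nkd aleurone, against 0.107%, 0.0796% and 0.138% in nkd starchy endosperm of gene reads. The oleosin gene ole1, for a coat protein of oil bodies, stood at 2532, 1484 and 2475 CPM in nkd aleurone, against 17.1, 117 and 189 CPM in nkd starchy endosperm, a difference of 4.33 ± 0.80 (edgeR adjusted p = 0.00849). The oleosin gene ole17 stood at 542, 359.9 and 420.1 CPM in nkd aleurone, against 2.42, 19.03 and 30.1 CPM in nkd starchy endosperm, a difference of 4.68 ± 0.94 (edgeR adjusted p = 0.0122). In both, starchy endosperm replicate 1 was lowest and replicate 3 highest, and the tissues did not overlap. DGAT1-2, which encodes the enzyme of the last step of oil synthesis, stood at 40.8, 58.2 and 19.1 CPM in nkd aleurone, against 1.47, 0.914 and 3.002 CPM in nkd starchy endosperm, a difference of 4.45 ± 0.62 (edgeR adjusted p = 0.00261). A further gene with the symbol oleosin (GRMZM2G333069) stood at 95.9, 44.7 and 34.6 CPM in nkd aleurone, against 21.02, 13.99 and 17.8 CPM in nkd starchy endosperm, a difference of 1.73 ± 0.48 (edgeR adjusted p = 0.0472). Its call was lost without any 1 nkd library other than nkd aleurone replicate 3 (highest edgeR adjusted p = 0.187), without B73 aleurone replicate 1 (0.0645) or B73 starchy endosperm replicate 1 (0.0503) or 2 (0.0525), with nkd libraries alone (0.0684) and with the flow cell as a block (0.0626). The desaturase gene fad2 (GRMZM2G056252) went the other way in sign, at 731, 354 and 318 CPM in nkd aleurone, against 1031, 538 and 716 CPM in nkd starchy endosperm, and did not pass.

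Among late embryogenesis abundant (LEA) proteins and dehydrins, which protect cells during drying, all 6 tested genes had a difference above 0 and 2 were called (median 2.17). Without nkd starchy endosperm replicate 3 the median was 4.31 and 3 were called. The LEA gene mlg3, also counted among the aleurone markers, stood at 86.9, 56.1 and 57.4 CPM in nkd aleurone, against 0.158, 6.797 and 2.28 CPM in nkd starchy endosperm, a difference of 4.43 ± 1.17 (edgeR adjusted p = 0.03905). Its call was lost without any 1 nkd library other than nkd starchy endosperm replicate 2 (highest edgeR adjusted p = 0.0885) and with the spread taken from nkd libraries alone (0.05204). EMB5, the other called LEA gene, had 261 reads in the 3 nkd aleurone libraries and 0 in the 3 nkd starchy endosperm libraries. Set against a floor of 3 reads over the group it was at least 58.2-fold higher (edgeR adjusted p = 0.0188), and its call was lost without nkd aleurone replicate 2 (0.0504), nkd starchy endosperm replicate 1 (0.0568) or nkd starchy endosperm replicate 2 (0.0533). The dehydrin gene dhn2 stood at 172, 47.6 and 156 CPM in nkd aleurone, against 27, 38.6 and 58.9 CPM in nkd starchy endosperm. nkd aleurone replicate 2 fell inside the starchy endosperm range, and the difference of 1.59 ± 0.63 did not pass (edgeR adjusted p = 0.151).

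The pair of tested globulins, storage proteins of the vacuole, split between the tissues. The gene glb1 stood at 80.2, 40.3 and 35.4 CPM in nkd aleurone, against 2.42, 4.05 and 7.47 CPM in nkd starchy endosperm, a difference of 3.48 ± 0.68 (edgeR adjusted p = 0.0111). The call was lost without nkd starchy endosperm replicate 1 (0.0524). The gene glb3 stood at 71.6, 13.1 and 10.5 CPM in nkd aleurone, against 824, 521 and 395 CPM in nkd starchy endosperm, a difference of -4.19 ± 0.74 (edgeR adjusted p = 0.00732). Each gene was separate between the tissues in all 6 libraries, glb1 on the aleurone side and glb3 on the starchy endosperm side.

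The transcription factor vp1, which activates seed maturation and anthocyanin regulators in aleurone and embryo, had the largest difference among 10 tested endosperm regulators. It stood at 47.05, 50.7 and 12.7 CPM in nkd aleurone, against 0.0396, 0.643 and 1.68 CPM in nkd starchy endosperm. nkd aleurone replicate 3 was the lowest of its group and nkd starchy endosperm replicate 3 the highest of the other, and still the groups did not overlap. The difference was 5.51 ± 0.91 (edgeR adjusted p = 0.00547).

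The other called regulators, 5 in all, were lower in nkd aleurone. Opaque2 (o2), the bZIP activator of zein genes, stood at 114, 68.04 and 36.4 CPM in nkd aleurone, against 626, 392 and 331 CPM in nkd starchy endosperm, a difference of -2.62 ± 0.45 (edgeR adjusted p = 0.00659). Its partner pbf1, the prolamin-box binding factor, stood at 3.18, 2.63 and 1.89 CPM in nkd aleurone, against 28.9, 19.7 and 20.01 CPM in nkd starchy endosperm, a difference of -3.16 ± 0.43 (edgeR adjusted p = 0.00239). DOF36, of the same DOF zinc finger class, stood at 15.7, 16.2 and 27.1 CPM in nkd aleurone, against 148, 178 and 123 CPM in nkd starchy endosperm, a difference of -2.93 ± 0.42 (edgeR adjusted p = 0.002903). These 3 genes were separate between the tissues in every library. The bHLH gene Opaque11 stood at 70.3, 48.99 and 49.3 CPM in nkd aleurone, against 179.6, 186 and 118 CPM in nkd starchy endosperm, a smaller difference of -1.52 ± 0.34 (edgeR adjusted p = 0.0203). Its call was lost without nkd aleurone replicate 2 or 3 or nkd starchy endosperm replicate 1 or 2 (highest edgeR adjusted p = 0.08501) and with the spread taken from nkd libraries alone (0.05798). Nkd2, described above, completes the 5. The Opaque2-related factors ohp1 and ohp2 had differences of 0.41 ± 0.43 and 0.28 ± 0.38, neither past the test.

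**Figure D2:**
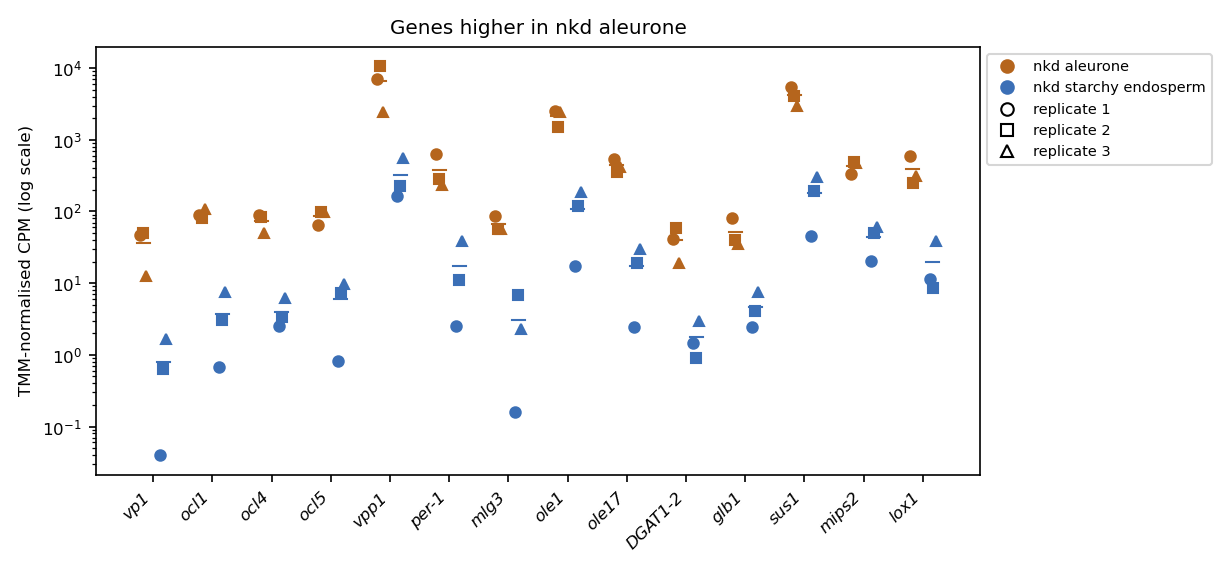
TMM-normalised CPM on a log scale of 14 genes called higher in nkd aleurone, from regulators on the left to enzymes on the right; each symbol is a library, with the shape marking the replicate, and the horizontal bars are group means. In every gene the 3 nkd aleurone libraries lie above the 3 nkd starchy endosperm libraries, and in all but mlg3 the highest starchy endosperm library is replicate 3.

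Zein genes fell almost throughout. Of 26 tested, 21 were called lower in nkd aleurone and 0 higher, with a median difference of -4.05. Near-identical copies share reads in the alpha families, so single alpha zeins are uncertain and the family is better read as a whole. The sulphur-rich gamma zein gz27 stood at 971, 369 and 502 CPM in nkd aleurone, against 11610.0, 11980.0 and 6396 CPM in nkd starchy endosperm, a difference of -4.03 ± 0.66 (edgeR adjusted p = 0.00547). The gamma zein gz16 stood at 243, 62.5 and 56.8 CPM in nkd aleurone, against 5056, 3198 and 2501 CPM in nkd starchy endosperm, a difference of -4.89 ± 0.78 (edgeR adjusted p = 0.004799). The beta zein zp15 stood at 856, 359.9 and 197 CPM in nkd aleurone, against 11730.0, 4143 and 6766 CPM in nkd starchy endosperm, a difference of -4.00 ± 0.71 (edgeR adjusted p = 0.00732). In each the tissues were far apart, and nkd aleurone replicate 1 was the highest of its group. The delta zein dzs18 stood at 348, 339.9 and 64.1 CPM in nkd aleurone, against 3565, 1868 and 1712 CPM in nkd starchy endosperm, a difference of -3.25 ± 0.65 (edgeR adjusted p = 0.0117). These 4 zeins were called without any single nkd library, and the other 17 were not.

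Among alpha zeins of the z1A group, z1A1_5 stood at 540.3, 90.6 and 46.5 CPM in nkd aleurone, against 10920.0, 1735 and 2073 CPM in nkd starchy endosperm, a difference of -4.44 ± 1.07 (edgeR adjusted p = 0.0267). Replicate 1 was highest in both tissues, so that nkd aleurone replicate 1 came closest to the lowest starchy endosperm library. The called z1A and z1C genes had differences between -3.77 (z1C1_6) and -4.79 (z1A2_1). The gamma zein gz50 stood at 15.4, 4.05 and 30.9 CPM in nkd aleurone, against 226, 1235 and 113 CPM in nkd starchy endosperm, with replicate 2 highest in starchy endosperm and lowest in aleurone. Both z1C1_11 and z1C1_12 broke the pattern, with differences of 0.078 ± 1.61 and 0.31 ± 1.33; z1C1_12 stood at 22.1, 7.44 and 0 CPM in nkd aleurone, against 2.61, 8.18 and 12.9 CPM in nkd starchy endosperm, its highest value in nkd aleurone replicate 1. The gene z1C1_11 stood at 21.9, 0.0163 and 0 CPM in nkd aleurone, against 2.77, 6.40 and 11.5 CPM in nkd starchy endosperm. Without nkd aleurone replicate 1 the difference of z1C1_11 was -9.27 (edgeR adjusted p = 0.00676). Almost no aleurone reads were then left, so the size of that difference is not reliable. The difference of z1C1_12 without that library was -1.09, not past the test. The number of zeins called was 5 without nkd aleurone replicate 2, 5 without nkd starchy endosperm replicate 1, 8 without nkd aleurone replicate 3 and 6 with the spread taken from nkd libraries alone. The zein share of reads differed by -6.16 percentage points, 0.454% ± 0.392 in nkd aleurone and 6.62% ± 3.56 in nkd starchy endosperm (SD, n = 3; exact permutation p = 0.1, two-sided, the smallest that 3 against 3 libraries allow).

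Of 19 tested starch synthesis genes 9 were called lower in nkd aleurone and 0 higher, with a median of -1.85. Of all 19, 14 had a difference below 0 and 5 above. The list took 0.153%, 0.119% and 0.0941% in nkd aleurone, against 1.13%, 1.1% and 0.629% in nkd starchy endosperm of gene reads. Shrunken2 (sh2) and brittle2 (bt2) encode the large and small subunits of the ADP-glucose pyrophosphorylase of endosperm. The gene bt2 stood at 28.1, 16.9 and 23.1 CPM in nkd aleurone, against 870.3, 1126 and 206 CPM in nkd starchy endosperm, a difference of -5.01 ± 0.66 (edgeR adjusted p = 0.00211). The gene sh2 stood at 67.8, 54.4 and 71.8 CPM in nkd aleurone, against 2608, 2068 and 897 CPM in nkd starchy endosperm, a difference of -4.84 ± 0.60 (edgeR adjusted p = 0.00203). Brittle1 (bt1), the plastid importer of ADP-glucose, stood at 143, 51.5 and 71.8 CPM in nkd aleurone, against 3236, 1721 and 1551 CPM in nkd starchy endosperm, a difference of -4.61 ± 0.58 (edgeR adjusted p = 0.00203). In bt2 and sh2 nkd starchy endosperm replicate 3 was the lowest of its group and still above all aleurone libraries.

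Of the starch synthases, waxy1 (wx1), which makes amylose, stood at 20.3, 7.73 and 21.4 CPM in nkd aleurone, against 410.5, 445 and 140.0 CPM in nkd starchy endosperm, a difference of -4.33 ± 0.73 (edgeR adjusted p = 0.00594). The soluble synthase gene ss1 stood at 36.6, 41.5 and 22.1 CPM in nkd aleurone, against 583, 299 and 220.3 CPM in nkd starchy endosperm, a difference of -3.46 ± 0.45 (edgeR adjusted p = 0.00204), and sugary2, another soluble synthase, had a difference of -3.49 ± 0.41 (edgeR adjusted p = 0.00203). The plastid phosphorylase gene pho1 had a difference of -3.64 ± 0.50 (edgeR adjusted p = 0.00256). These 4 were separate between the tissues. Of the branching enzymes, ae1 stood at 558, 428 and 216 CPM in nkd aleurone, against 2419, 2777 and 797 CPM in nkd starchy endosperm, a difference of -2.32 ± 0.54 (edgeR adjusted p = 0.02201), and sbe1 had -1.85 ± 0.44 (edgeR adjusted p = 0.0244). The calls of ae1 and sbe1 were lost without any 1 of nkd aleurone replicates 2 and 3 and nkd starchy endosperm replicates 1 and 2, with highest edgeR adjusted p of 0.0806 and 0.0968, and with the spread taken from nkd libraries alone (0.0716 and 0.0796). The other 10 genes did not pass, among them the pyrophosphorylase subunit genes AGP2 at 40.6, 21.7 and 20.9 CPM in nkd aleurone, against 28.6, 18.4 and 24.2 CPM in nkd starchy endosperm, and Agpsemzm at 11.2, 15.9 and 14.5 CPM in nkd aleurone, against 25.3, 21.1 and 22.2 CPM in nkd starchy endosperm.

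Sucrose synthases, which split sucrose on its way into starch and cell walls, changed in opposite directions. Shrunken1 (sh1) stood at 448, 268 and 77.6 CPM in nkd aleurone, against 9180.0, 4416 and 2490.0 CPM in nkd starchy endosperm, a difference of -4.34 ± 0.76 (edgeR adjusted p = 0.00704). The paralog sus1 stood at 5422, 4088 and 2979 CPM in nkd aleurone, against 46.2, 194 and 298 CPM in nkd starchy endosperm, a difference of 4.54 ± 0.76 (edgeR adjusted p = 0.006104), and sus2 at 80.6, 50.2 and 64.8 CPM in nkd aleurone, against 0.356, 6.33 and 3.58 CPM in nkd starchy endosperm, a difference of 4.24 ± 0.87 (edgeR adjusted p = 0.0137). Each gene was separate between the tissues, with sh1 on the starchy endosperm side. Of the 11 sugar supply genes these 3 were called, and 5 with the flow cell as a block, which adds the sucrose transporter gene sut1 (edgeR adjusted p = 0.03905, against 0.0578 without the block) and the tonoplast transporter gene TMT (0.0281, against 0.0865). Without the block sut1 stood at 130.1, 41.2 and 64.8 CPM in nkd aleurone, against 0.871, 3.04 and 14.8 CPM in nkd starchy endosperm. The cell wall invertase gene mn1, of the basal transfer layer, stood at 2.11, 0.473 and 37.9 CPM in nkd aleurone, against 0, 5.14 and 42.2 CPM in nkd starchy endosperm, high in replicate 3 of both tissues, as were the transfer layer genes.

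Of 8 genes of folding in the endoplasmic reticulum and of protein bodies, 3 were called lower and 0 higher (median -0.72). The disulfide isomerase gene PDIL1-1 stood at 403, 264 and 333 CPM in nkd aleurone, against 772, 2090.0 and 1172 CPM in nkd starchy endosperm, a difference of -2.01 ± 0.54 (edgeR adjusted p = 0.0427), lost without any 1 nkd library other than nkd starchy endosperm replicate 3 (highest 0.155), without B73 aleurone replicate 2 (0.0553) and with nkd libraries alone (0.0624). Floury1, which places alpha zein within protein bodies, stood at 4.001, 3.85 and 2.53 CPM in nkd aleurone, against 42.2, 29.7 and 7.77 CPM in nkd starchy endosperm, a difference of -2.94 ± 0.59 (edgeR adjusted p = 0.0115). The PLATZ factor gene fl3 stood at 18.3, 22.6 and 42.2 CPM in nkd aleurone, against 141, 540.4 and 124 CPM in nkd starchy endosperm, a difference of -3.28 ± 0.78 (edgeR adjusted p = 0.0244), lost without nkd aleurone replicate 1 (0.0898) or 2 (0.1) or nkd starchy endosperm replicate 2 (0.101). The general chaperone gene bip1 stood at 485, 555 and 90.7 CPM in nkd aleurone, against 599, 319.7 and 305 CPM in nkd starchy endosperm, with overlapping tissues. Among 3 Opaque2 targets outside the zeins edgeR called 0, while DESeq2 and limma called 1 each and 1 had an unadjusted edgeR p under 0.05. Of all 26674 tested genes edgeR called 1736, DESeq2 3916 and limma 2012, and 6073 had an unadjusted edgeR p under 0.05. The albumin gene b-32 stood at 1.77, 0.0163 and 0.198 CPM in nkd aleurone, against 59.8, 6.62 and 8.82 CPM in nkd starchy endosperm, a difference of -5.30 ± 1.57 (edgeR adjusted p = 0.0619, and 0.0102 with the flow cell as a block).

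**Figure D3:**
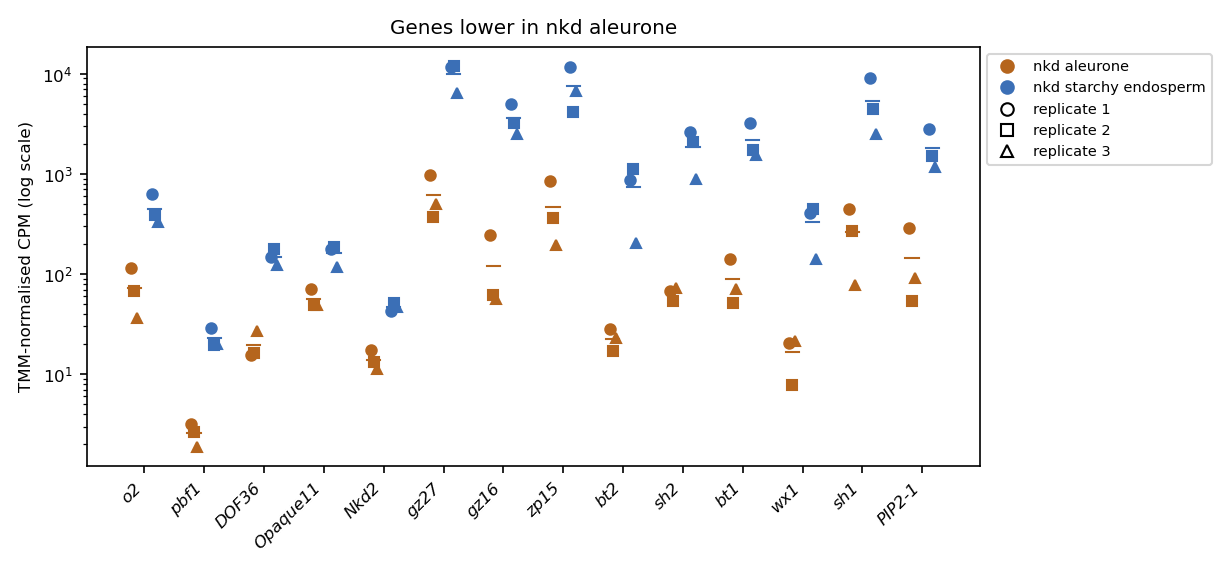
TMM-normalised CPM on a log scale of 14 genes called lower in nkd aleurone, from regulators through zeins to enzymes; each symbol is a library, with the shape marking the replicate, and the horizontal bars are group means. In every gene the 3 nkd aleurone libraries lie below the 3 nkd starchy endosperm libraries, by the least in Opaque11 (70.3 CPM at the highest in aleurone and 118 CPM at the lowest in starchy endosperm).

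Anthocyanin genes lay mostly on the aleurone side. Of 10 tested 8 had a difference above 0 and 2 below, with a median of 1.53. In 5 the nkd aleurone libraries all lay above the nkd starchy endosperm libraries, and in 0 all lay below. Among all tested genes these shares were 15.9% and 12.5%. An unadjusted edgeR p under 0.05 was found for 4, and DESeq2 called 3, against 6073 and 3916 of all 26674 tested genes. By edgeR 1 was called higher and 0 lower, where 3.24% of all tested genes were called higher. It was the flavanone hydroxylase gene fht1, at 41.2, 20.03 and 25.9 CPM in nkd aleurone, against 0.435, 2.27 and 3.54 CPM in nkd starchy endosperm, a difference of 3.79 ± 0.72 (edgeR adjusted p = 0.00997). The reductase gene A1 stood at 95.3, 21.1 and 12.6 CPM in nkd aleurone, against 1.66, 1.75 and 11.6 CPM in nkd starchy endosperm, with nkd aleurone replicate 1 far above the rest (edgeR adjusted p = 0.113, but 0.0386 without nkd starchy endosperm replicate 3 and 0.0207 by DESeq2). The glutathione transferase gene bz2 stood at 17.3, 18.7 and 3.44 CPM in nkd aleurone, against 31.04, 13.6 and 36.7 CPM in nkd starchy endosperm, and the tissues overlapped. The bHLH regulator r1 had 25 reads in nkd aleurone and 0 in nkd starchy endosperm, at least 5.58-fold by the floor of 3 reads, and did not pass (edgeR adjusted p = 0.111).

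Phytate, iron and zinc genes held 1 call in each direction among 12 tested (median 0.73), where 3.24% of all tested genes were higher and 3.27% lower. The inositol phosphate synthase gene mips2, for the first step of phytate synthesis, stood at 333, 496 and 468 CPM in nkd aleurone, against 20.1, 50.5 and 60.1 CPM in nkd starchy endosperm, a difference of 3.31 ± 0.65 (edgeR adjusted p = 0.0109). The metal transporter gene Nramp1 stood at 0.0563, 0.131 and 0 CPM in nkd aleurone, against 2.61, 1.36 and 1.21 CPM in nkd starchy endosperm, a difference of -4.72 ± 0.90 (edgeR adjusted p = 0.0102, and 0.0683 with nkd libraries alone). INO1, another inositol phosphate synthase gene, stood at 105, 122 and 315 CPM in nkd aleurone, against 64.3, 92.9 and 29.8 CPM in nkd starchy endosperm, separate between the tissues but short of the threshold (edgeR adjusted p = 0.102, and 0.03795 by DESeq2).

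Lipoxygenase genes, which oxidise fatty acids toward jasmonates and related oxylipins, had 2 calls among 11, both higher, around a median of -0.1. Of all tested genes 3.24% were called higher. The gene lox1 stood at 594, 246 and 315 CPM in nkd aleurone, against 11.6, 8.48 and 38.8 CPM in nkd starchy endosperm, a difference of 4.29 ± 0.62 (edgeR adjusted p = 0.00282). The gene lox4 stood at 14.1, 42.2 and 91.8 CPM in nkd aleurone, against 1.23, 3.95 and 4.75 CPM in nkd starchy endosperm, a difference of 3.89 ± 0.76 (edgeR adjusted p = 0.0107). Neither gene overlapped between the tissues. Without nkd starchy endosperm replicate 3, 5 of the family were called and the median was 0.82, in a fit that called 2501 of 26478 tested genes.

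Water channel genes were mixed, with 1 of 21 higher (TIP3-1) and 2 lower, against 3.24% and 3.27% of all tested genes. The plasma membrane aquaporin PIP2-1 stood at 292, 53.9 and 92.3 CPM in nkd aleurone, against 2810.0, 1521 and 1162 CPM in nkd starchy endosperm, a difference of -3.65 ± 0.69 (edgeR adjusted p = 0.00988). SIP2-1 stood at 5.78, 8.84 and 4.55 CPM in nkd aleurone, against 19.8, 17.2 and 22.1 CPM in nkd starchy endosperm, a difference of -1.62 ± 0.40 (edgeR adjusted p = 0.028). The call of SIP2-1 was lost without nkd aleurone replicate 1 or 3 or nkd starchy endosperm replicate 1 or 2 (highest edgeR adjusted p = 0.102), with nkd libraries alone (0.0676) and with the flow cell as a block (0.05104). Without nkd starchy endosperm replicate 3, 5 aquaporins were called and the list's median turned to 0.58, against -0.25 with it. That fit called 2501 of 26478 tested genes. Of 10 expansins, which loosen cell walls, expa2 was called higher, at 56.3, 36.9 and 76.7 CPM in nkd aleurone, against 4.04, 2.27 and 15.4 CPM in nkd starchy endosperm, a difference of 2.96 ± 0.79 (edgeR adjusted p = 0.0405), lost without any 1 nkd library other than nkd starchy endosperm replicate 3 (highest 0.143), without any 1 B73 aleurone library (highest 0.0594) and with nkd libraries alone (0.0591). The expansin median turned from below to above 0 without nkd starchy endosperm replicate 3 (1.15, against -0.66 with it).

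Of 22 cell cycle and replication genes 3 were called, all cyclins and all higher in nkd aleurone (median of the list 0.47). The share called higher among all tested genes was 3.24%. Cyclin9 stood at 48.8, 74.99 and 134 CPM in nkd aleurone, against 3.25, 10.3 and 8.796 CPM in nkd starchy endosperm, a difference of 3.52 ± 0.72 (edgeR adjusted p = 0.0129). Cyclin11 stood at 15.2, 10.1 and 37.9 CPM in nkd aleurone, against 0, 1.21 and 2.16 CPM in nkd starchy endosperm, a difference of 4.20 ± 1.08 (edgeR adjusted p = 0.0355). Cyclin4 stood at 63.2, 74.99 and 227 CPM in nkd aleurone, against 10.2, 35.6 and 19.1 CPM in nkd starchy endosperm, a difference of 2.49 ± 0.56 (edgeR adjusted p = 0.0193). In all 3 cyclins nkd aleurone replicate 3 was the highest library. Their calls were not firm: that of cyclin9 was lost without nkd starchy endosperm replicate 1 (0.0562), that of cyclin4 without nkd starchy endosperm replicate 1 (0.07605) or nkd aleurone replicate 3 (0.0691), and that of cyclin11 without any 1 nkd library other than nkd starchy endosperm replicates 1 and 3 (highest 0.114) or without any 1 B73 aleurone library (highest 0.0547). That of cyclin4 was also lost when the first listed transcript stood for the gene (0.556). With nkd libraries alone 1 of the list was called, and without nkd starchy endosperm replicate 3 the number was 5. The replication clamp gene pcna1 stood at 122, 191 and 177 CPM in nkd aleurone, against 166, 230.5 and 177 CPM in nkd starchy endosperm, with overlapping tissues. Of 9 histone genes edgeR and limma called 0 and DESeq2 1, with 2 at an unadjusted edgeR p under 0.05. Among all 26674 tested genes DESeq2 called 3916, and 6073 had an unadjusted edgeR p under 0.05.

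Over all tested genes 3.27% were called lower in nkd aleurone, and 13320 of 26674 had a difference below 0. Of 34 tested ribosomal protein genes 4 were called, all lower in nkd aleurone, and 31 had a difference below 0 (median -0.80). The called genes were rps24, rpp2a-2, rpl12 and an rps4 copy (GRMZM2G125271), with differences of -1.41 ± 0.29, -1.56 ± 0.35, -1.32 ± 0.35 and -1.03 ± 0.29. The list took 1.01%, 1.07% and 1.48% in nkd aleurone, against 1.702%, 1.79% and 1.78% in nkd starchy endosperm of gene reads, without overlap. The calls were sensitive to single libraries, with 0 left without nkd aleurone replicate 2, 1 without nkd aleurone replicate 3, 1 without nkd starchy endosperm replicate 1, 1 without nkd starchy endosperm replicate 2 and 0 with nkd libraries alone. The call of the rps4 copy was also lost with the flow cell as a block (edgeR adjusted p = 0.0730).

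The remaining lists held at most 2 calls each. Since 6.51% of all tested genes were called, counts this small are not read as a result about a list. Of 10 carotenoid and abscisic acid genes 2 were lower: the carotene hydroxylase gene HYD3, at 146, 117 and 81.9 CPM in nkd aleurone, against 419, 321 and 321 CPM in nkd starchy endosperm (difference -1.62 ± 0.36, edgeR adjusted p = 0.01796), and the phytoene synthase gene y1, at 0.817, 0.375 and 0.289 CPM in nkd aleurone, against 5.74, 1.93 and 1.68 CPM in nkd starchy endosperm (difference -2.66 ± 0.64, edgeR adjusted p = 0.0251). Both calls were lost without nkd aleurone replicate 2 or 3 or nkd starchy endosperm replicate 1, with highest edgeR adjusted p of 0.0682 and 0.115, and with nkd libraries alone. Of 13 heat shock genes 1, hsp18c, was lower, at 40.3, 83.5 and 15.5 CPM in nkd aleurone, against 939, 472 and 488 CPM in nkd starchy endosperm (difference -3.77 ± 0.89, edgeR adjusted p = 0.0238). It was lost without nkd aleurone replicate 1 (0.0835) or 3 (0.0774) or nkd starchy endosperm replicate 1 (0.0738), while with the flow cell as a block hsp18f passed too (0.0146, against 0.09397 without it).

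Of 8 defence genes 1, the chitinase gene chiB, was lower, at 17.4, 2.01 and 8.97 CPM in nkd aleurone, against 77.9, 58.6 and 24.04 CPM in nkd starchy endosperm (difference -2.50 ± 0.64, edgeR adjusted p = 0.0349), a call lost without nkd aleurone replicate 2 or 3 or nkd starchy endosperm replicate 1 or 2 (highest 0.116), without B73 aleurone replicate 2 or 3 (0.0507 and 0.0507) and with nkd libraries alone (0.102). With the block the protease inhibitor gene MPI passed as well (0.0235, against 0.0973 without it). Of 6 tested embryo and meristem genes 1, the homeobox gene wox2A, was lower, at 6.903, 8.27 and 10.9 CPM in nkd aleurone, against 50.6, 26.2 and 31.9 CPM in nkd starchy endosperm (difference -2.06 ± 0.56, edgeR adjusted p = 0.0433), lost without any 1 nkd library other than nkd starchy endosperm replicate 3 (highest 0.144), without B73 aleurone replicate 1 or 2 or B73 starchy endosperm replicate 1 (highest 0.0609) and with the flow cell as a block (0.0547). Among 8 catalase and antioxidant genes per-1 alone was called, and cat1 stood at 272, 250.1 and 315 CPM in nkd aleurone, against 129.9, 189 and 90.2 CPM in nkd starchy endosperm (edgeR adjusted p = 0.101, and 0.02995 by DESeq2). edgeR called none of 15 basal transfer layer genes, 3 embryo surrounding region genes, 5 ovule and pericarp genes, 6 gibberellin genes, 5 proteases and 7 photosynthesis genes. At an unadjusted p under 0.05 there were 2 of the gibberellin genes and 3 of the photosynthesis genes, with 1 of each called by DESeq2. The other 4 lists had 0 by either count, and limma called 0 of these 6 lists. Of all 26674 tested genes, 6073 had an unadjusted edgeR p under 0.05 and DESeq2 called 3916, so these counts are no result about a list. The median of the basal transfer layer genes was -0.90 with all libraries and 1.69 without nkd starchy endosperm replicate 3. That of the ovule and pericarp genes was -0.30 and 0.76, and that of the embryo and meristem genes -0.045 and 0.60. In the same way the median of the sugar supply genes was 0.63 with 3 called and 2.11 with 5 called. For defence genes it was 0.12 with 1 called and 3.15 with 3 called. Heat shock genes had 1 called with all libraries and 4 without that library, and anthocyanin genes 1 and 2. More genes were called without it among all tested genes too, 2501 of 26478 against 1736 of 26674.

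Outside the lists, several transcription factor genes were among the largest named rises. The bZIP gene bZIP107 had 462 reads in the nkd aleurone libraries and 1 in the nkd starchy endosperm libraries, a ratio of 309 at equal depth (95% counting interval 55.2 to 12234; edgeR adjusted p = 0.00363). SCR, a GRAS factor related to the radial patterning gene SCARECROW, stood at 83.8, 134 and 133 CPM in nkd aleurone, against 0.752, 3.29 and 10.6 CPM in nkd starchy endosperm, a difference of 4.58 ± 0.90 (edgeR adjusted p = 0.0111). The AP2/ERF gene EREB26 stood at 37.9, 33.96 and 34.8 CPM in nkd aleurone, against 0.554, 1.31 and 2.63 CPM in nkd starchy endosperm, a difference of 4.55 ± 0.84 (edgeR adjusted p = 0.00839). The MYB gene MYB83 stood at 17.8, 10.6 and 10.1 CPM in nkd aleurone, against 0.0396, 0.914 and 0.675 CPM in nkd starchy endosperm, a difference of 4.52 ± 0.84 (edgeR adjusted p = 0.009004). In all of these the tissues were apart in every library. MYBR113, a MYB-related gene, stood at 7.69, 5.14 and 3.02 CPM in nkd aleurone, against 0.119, 0 and 0.0698 CPM in nkd starchy endosperm (edgeR adjusted p = 0.0458), and its call was lost without any 1 nkd library (highest 0.125) or without B73 aleurone replicate 2 (0.0643). The gene mrpi2 stood at 10.1, 4.11 and 0.837 CPM in nkd aleurone, against 0, 0.198 and 0.209 CPM in nkd starchy endosperm (edgeR adjusted p = 0.0476), lost without any 1 nkd library other than nkd aleurone replicate 3 (highest 0.135), without any 1 B73 aleurone library (highest 0.0719), with nkd libraries alone (0.0584), by limma (0.0786) and with the flow cell as a block (0.0643).

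The glycine-rich protein gene grp3 stood at 58.3, 39.5 and 41.6 CPM in nkd aleurone, against 0.0792, 0.395 and 3.12 CPM in nkd starchy endosperm, a difference of 5.25 ± 1.12 (edgeR adjusted p = 0.0159), lost without nkd starchy endosperm replicate 2 (0.0552). The plastid isoprenoid gene dxs2, for deoxyxylulose phosphate synthase, stood at 94.2, 84.7 and 13.99 CPM in nkd aleurone, against 2.42, 0.8897 and 4.89 CPM in nkd starchy endosperm, a difference of 4.55 ± 0.88 (edgeR adjusted p = 0.0106). It missed the threshold without nkd starchy endosperm replicate 1 (0.0501) and when the first listed transcript stood for the gene (0.355). Among the largest named falls outside the lists, the TCP factor gene TCP7 stood at 0.423, 0.163 and 0.3502 CPM in nkd aleurone, against 11.2, 10.2 and 7.75 CPM in nkd starchy endosperm, a difference of -4.96 ± 0.57 (edgeR adjusted p = 0.00203). The gene with the symbol hag stood at 110.5, 43.2 and 54.2 CPM in nkd aleurone, against 1516, 2015 and 1121 CPM in nkd starchy endosperm, a difference of -4.48 ± 0.62 (edgeR adjusted p = 0.00261). The glutathione transferase gene gst42 stood at 2.42, 2.496 and 1.37 CPM in nkd aleurone, against 47.8, 58.9 and 33.1 CPM in nkd starchy endosperm, a difference of -4.47 ± 0.69 (edgeR adjusted p = 0.00385). All 3 were called without any single nkd library.

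The same tissue difference in B73 had the same sign for most of these genes, though 0 genes passed there. In B73, 0 of 26674 genes (0%) were called by edgeR, with 4432 at an unadjusted p under 0.05, 1450 called by DESeq2 and 0 by limma. Of the 864 genes higher in nkd aleurone 808 (93.5%) were also higher in B73 aleurone by sign, against 69.4% of all genes with an nkd difference above 0. Of the 872 lower genes 794 (91.1%) were also lower, against 63.2% of all genes with an nkd difference below 0. The median difference of the higher genes was 3.09 in nkd and 1.59 in B73, and of the lower genes -2.65 in nkd and -1.003 in B73; since the genes were chosen on their nkd values, the larger nkd medians are no result.

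**Figure D4:**
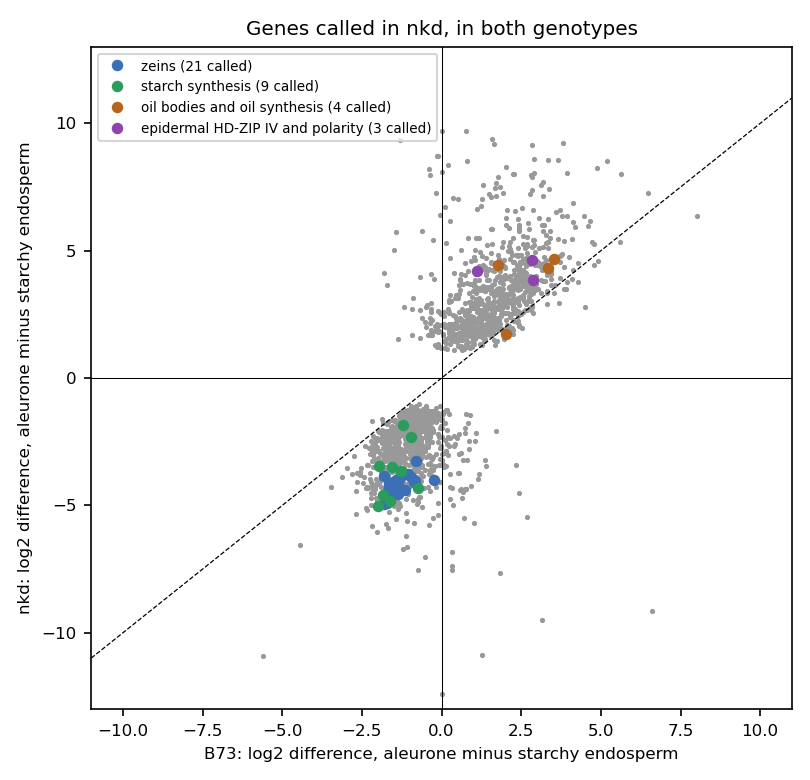
Each point is 1 of the 1736 genes called in nkd, placed by its log2 difference between aleurone and starchy endosperm in nkd (vertical axis) and in B73 (horizontal axis); the dashed line marks equal differences, and coloured points are called members of 4 lists. Most points lie in the upper right and lower left, where 808 of the 864 higher and 794 of the 872 lower genes share their sign, and the zeins lie below the dashed line.

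Without B73 starchy endosperm replicate 2, the library most like aleurone, 322 genes were higher (1.21%) and 119 lower (0.447%) in B73 aleurone. That library was singled out from these same data, and leaving it out widens the B73 difference by itself. Every other edgeR fit called 0 genes in B73, so the B73 calls below are a description and no independent support. Of these 322, 107 were also called higher in nkd, 33.2% of the B73 calls and 12.4% of the nkd calls. Of the 119, 43 were also called lower in nkd, 36.1% of the B73 calls and 4.93% of the nkd calls, and 0 genes were called in opposite directions. Among the identity genes described above, those called the same way in both genotypes on this basis were ocl1, ole17, fht1, sus1, sus2, mips2 and EREB26 on the aleurone side and pbf1, ss1, sugary2, SIP2-1 and TCP7 on the starchy endosperm side. The gene ocl1, for example, stood at 22.3, 21.6 and 50.8 CPM in B73 aleurone, against 1.97, 8.82 and 1.91 CPM in B73 starchy endosperm, and B73 starchy endosperm replicate 2 was the highest of its group. The oleosin gene ole17 stood at 1294, 296 and 929.5 CPM in B73 aleurone, against 47.8, 152 and 19.7 CPM in B73 starchy endosperm, with the same library highest. The sucrose synthase gene sus1 stood at 2678, 1283 and 3453 CPM in B73 aleurone, against 132, 554 and 211 CPM in B73 starchy endosperm. Its B73 difference was 3.05 with all libraries and 3.85 without that one.

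The B73 calls on this basis that nkd did not share among the listed genes were Nkd1, dhn2 and O10. The Nkd1 difference in B73 was -1.62 without B73 starchy endosperm replicate 2 (edgeR adjusted p = 0.0433), against -0.29 in nkd. The dehydrin dhn2 had 3.40 in B73 (edgeR adjusted p = 0.0368) and 1.59 in nkd. The protein body gene O10 had -1.97 in B73 (edgeR adjusted p = 0.0437) and -1.17 in nkd. A call in one genotype and not in the other is not a difference between them.

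The difference between the genotypes was therefore tested itself, as the nkd difference minus the B73 difference. It passed for 0 of 26674 genes (0%) by edgeR and for 0 by limma, with 2183 genes at an unadjusted edgeR p under 0.05, and for 193 by DESeq2. Zein differences were larger in nkd by their values, with a list median of -4.05 in nkd and -1.41 in B73. Zeins took 26.6%, 13.9% and 16.9% in B73 aleurone, against 38.4%, 24.3% and 39.1% in B73 starchy endosperm of gene reads. Zeins were thus abundant in both B73 tissues. For gz27 the nkd difference was -4.03 ± 0.66 and the B73 difference -0.84 ± 0.59, and the test of their difference gave an edgeR adjusted p of 0.402.

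The starch synthesis genes had a median of -0.96 in B73, against -1.85 in nkd as given above. The oil body genes had 1.94 in B73, and the epidermal HD-ZIP IV and polarity genes 2.05. Of the OCL genes called in nkd, ocl4 was low in B73. It stood at 1.18, 3.53 and 4.04 CPM in B73 aleurone, against 0.884, 2.59 and 0 CPM in B73 starchy endosperm. The B73 tissues overlapped for ocl4 and were separate for ocl1 and ocl5. Of the called genes, 56 of the higher and 78 of the lower had no B73 difference of the same sign, lox4 and gst42 among them. The gene gst42 stood at 1.204, 2.41 and 1.96 CPM in B73 aleurone, against 0.0983, 1.73 and 1.53 CPM in B73 starchy endosperm, a B73 difference of 0.69 ± 0.64 opposite in sign to that in nkd. The test of the difference between genotypes did not pass for it (edgeR adjusted p = 0.193). The lipoxygenase gene lox4 stood at 7.12, 6.55 and 4.72 CPM in B73 aleurone, against 4.91, 3.43 and 13.8 CPM in B73 starchy endosperm, a B73 difference of -0.23 ± 0.69 (edgeR adjusted p of the difference between genotypes = 0.389). For both genes the nkd tissues were separate and the B73 tissues overlapped. The regulators o2 and Opaque11 had B73 differences of -1.12 ± 0.43 and -0.079 ± 0.34, and neither difference between genotypes passed (edgeR adjusted p = 0.566 and 0.477).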

How the data were processed

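Kernels of B73 and nkd were sampled 15 days after pollination, and RNA of captured cells was sequenced in 3 libraries for each of 4 groups. The authors deposited 1 table of signal values per tissue, read counts divided by 1 factor per library. The tables were scaled separately, so values cannot be compared across them as deposited. FastQC, TopHat and DESeq are listed, with no version, in the submitters' processing notes. The genome build, annotation, use of strand and treatment of multiply mapped reads are not given in the sources at hand. Overlapping and antisense genes can therefore share reads, as can near-identical copies. Whole reads were recovered by dividing by the smallest step (100% whole within 0.01), and the transcript with the highest mean stood for each of 39656 genes. T7 amplification favours transcript 3' ends, and no molecular identifiers were used, so counting intervals cover counting error only.

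Recovered reads of all 12 libraries were fitted with edgeR 4.0.16 (quasi-likelihood, TMM) in R 4.3.3, over genes averaging 5 or more scaled reads, with Benjamini-Hochberg adjustment, two-sided. SE is the absolute log2 difference over the square root of F. The common biological coefficient of variation was 0.627. In a test on simulated data for nkd, 67.5% of 200 genes changed 4-fold were recovered and 5.59% of calls were false. It ran on the 19351 genes with a mean of at least 50 scaled reads, so recovery among genes with fewer reads was not measured. The simulated counts had 1 spread for all genes, below the common value given above, and no library stood apart as some did here. These rates therefore do not measure recovery or false calls in the real libraries. DESeq2 1.42.0 and limma 3.58.1 (on log2 of scaled reads plus 1) were alternatives, beside other scalings, filters, transcript choices, a flow cell block and leaving out each library. Preparation and plots used Python 3.11.15, pandas 2.3.3, numpy 2.4.6, scipy 1.17.1 and matplotlib 3.10.9. Shares of reads were tested with exact permutation tests over the 6 nkd libraries, for each of 31 lists; those of 3 against 3 cannot go below p = 0.1.

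RefSeq's gene table (build Zm-B73-REFERENCE-NAM-5.0) supplied gene names and no coordinates: 18775 of 39656 genes (47.3%) matched and 2660 had a name, so a gene without one is in no list. The comparison, its members and the lists were chosen with earlier results of these data known, and lists were matched by symbol. Genes are named by a rule: Nkd1 and Nkd2, the 12 largest rises and 12 largest falls among named called genes with a mean of at least 50 scaled reads and no overlap, and the up to 4 members of each list with the highest mean. Other listed genes (cr4, dek1, Sal1, TIP3-1, ohp1, ohp2, pbf1, ocl3, fht1, r1, DGAT1-2, EMB5, dzs18, single z1C zeins, wx1, ss1, sugary2, pho1, sbe1, AGP2, Agpsemzm, sus2, Floury1, O10, the cyclins, y1, Nramp1, SIP2-1, hsp18c and the 4 called ribosomal genes) and those of the closing section were named after their values were seen. The labels tie each replicate number to a flow cell, which pairs the libraries; deviations of same-numbered nkd libraries from their group means correlated at 0.176, 0.063 and -0.061 across genes.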

Additional observations from a re-analysis of the deposited data

How the results depend on the processing

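The count of genes called between nkd aleurone and nkd starchy endosperm, 1736, was 3916 by DESeq2, 963 with the nkd libraries alone and 947 with those and a replicate block, and 632 to 2503 when 1 of the 12 libraries was left out. The 2503 came without B73 starchy endosperm replicate 3. Other scalings, filters and transcript choices and limma gave 1692 to 2012, and the replicate block in the full fit 1634. Of the listed genes, 77 were called, 43 with nkd libraries alone, 38 to 99 without 1 library and 80 with the replicate block. In B73 0 genes were called, 1450 by DESeq2 and 0 to 441 without 1 library, the 441 without B73 starchy endosperm replicate 2. The difference between genotypes gave 0 calls, 193 by DESeq2, 0 with the replicate block, and 0 in each fit without 1 library. Leaving out 1 nkd library moved the difference in zein share between -7.39 and -4.12 percentage points. Of 53 called genes named by rule, 30 were called without any single nkd library, 28 in all 23 alternatives and 50 by edgeR with the replicate block. Changes of call with that block stand beside the genes the report names. No called gene that is listed or named by rule changed sign, but 22 of the 83 genes named by rule and not called did. Their log2 differences without 1 library were -0.17 to 0.92 for gl4a, -0.50 to 0.38 for bip1, -3.53 to 1.07 for betl2, -4.26 to 1.71 for meg2, -3.62 to 2.38 for mn1, -3.74 to 2.13 for betl10, -1.14 to 2.96 for esr2, -0.55 to 1.37 for lg3, -1.31 to -0.17 for ZYB15, -0.71 to 0.38 for zmm2, -0.998 to 0.30 for ZAG1, -0.59 to 0.76 for bde1, -0.35 to 0.94 for MCM6, -0.40 to 1.17 for H4C13, -0.24 to 0.34 for his2b2, -0.34 to 0.35 for d9, -0.079 to 0.51 for sod3, -1.23 to 0.15 for PIP1-1, -0.095 to 3.30 for lox3, -0.0080 to 1.12 for expB8, -1.45 to 0.11 for ccp2 and -0.32 to 0.086 for PSBQ. With limma mn1 was at 0.95 and ZYB15 at 0.14. With the replicate block mn1 was at 0.93 and d9 at 0.0060, and with that block in the nkd libraries alone mn1 was at 0.023 and zmm2 at 0.020. The median of 12 of the 31 lists turned under at least 1 alternative: over all alternatives it ran from -0.50 to 0.58 for aquaporins, -1.11 to 1.15 for expansins, -0.67 to 0.82 for lipoxygenases, -3.74 to 1.69 for the basal transfer layer, -1.14 to 5.39 for the embryo surrounding region, -1.09 to 0.62 for embryo and meristem genes, -0.71 to 0.76 for ovule and pericarp genes, -1.30 to 0.93 for globulins, -0.40 to 0.31 for histones, -0.72 to 3.15 for defence genes, -0.30 to 0.41 for carotenoid and abscisic acid genes, and -0.89 to 0.24 for gibberellin genes. The cause of these turns was not tested. A fit without a library has fewer samples and so less power. Depth limits genes at a few reads, and T7 amplification of small samples was not measured. Promoter motifs, planned at first, were not run. The fit of nkd libraries alone with a replicate block was added after the data were seen.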

Other observations

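Several called genes outside the lists, picked after their values were seen and given as values only, belong to the same tissue pattern. OBAP2A, for an oil body associated protein, stood at 986, 822 and 315 CPM in nkd aleurone, against 16.8, 35.6 and 74.1 CPM in nkd starchy endosperm, a difference of 4.07 ± 0.70 (edgeR adjusted p = 0.00653). OBAP1A, a related gene, stood at 140.0, 79.4 and 91.6 CPM in nkd aleurone, against 1.19, 6.35 and 9.42 CPM in nkd starchy endosperm, a difference of 4.19 ± 0.77 (edgeR adjusted p = 0.00836). HDZIV8_OCL8, a further HD-ZIP IV gene, stood at 71.8, 101 and 70.8 CPM in nkd aleurone, against 1.86, 1.68 and 10.3 CPM in nkd starchy endosperm, a difference of 4.14 ± 0.76 (edgeR adjusted p = 0.00836). All 3 were called without any single nkd library, and each lay higher in all 3 nkd aleurone libraries. The ROP GTPase genes rop2 and rop6, whose proteins act in cell polarity, were higher as well. The gene rop2 stood at 174, 214 and 194 CPM in nkd aleurone, against 24.9, 44.2 and 43.7 CPM in nkd starchy endosperm, a difference of 2.37 ± 0.34 (edgeR adjusted p = 0.002903), and rop6 had a difference of 3.86 ± 0.63 (edgeR adjusted p = 0.00544).

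The glycolysis gene eno1 and the fermentation gene adh1, picked in the same way, were lower in nkd aleurone. Other genes of these pathways were not counted. The enolase gene eno1 stood at 1269, 1618 and 1874 CPM in nkd aleurone, against 7820.0, 16290.0 and 2768 CPM in nkd starchy endosperm, a difference of -2.50 ± 0.63 (edgeR adjusted p = 0.0317). The alcohol dehydrogenase gene adh1 stood at 309.7, 337 and 537 CPM in nkd aleurone, against 1692, 3713 and 554 CPM in nkd starchy endosperm, a difference of -2.33 ± 0.61 (edgeR adjusted p = 0.0372). The tissues did not overlap in either gene, but for adh1 they nearly met in replicate 3. Calls of both were lost in at least 1 fit without 1 nkd library (highest edgeR adjusted p = 0.134 for eno1 and 0.161 for adh1) and with nkd libraries alone (0.0806 and 0.0959). The auxin synthesis genes Yucca6 and TAR3 had differences of -2.01 ± 0.41 and -1.75 ± 0.42 (edgeR adjusted p = 0.01305 and 0.0259), and both missed the threshold in at least 1 fit without 1 nkd library (highest 0.0532 and 0.113).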
